A study of Mus musculus with 6 samples.

Results

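The genes described here are 10 neuropeptide precursor genes of the cerebral cortex: Npy, Sst, Vip, Cck, Tac1, Penk, Pdyn, Crh, Nts and Cort. They were chosen by name and found in the deposited count matrix through their Ensembl identifiers in GENCODE mouse release M21. All 10 had a row among the 55401 gene rows, and 8 of them passed the filter on low counts that left 19844 genes for testing. Vip and Crh did not pass it. Bulk RNA sequencing had been carried out on C57BL/6 embryonic cortex (embryonic day 18, mouse), with 3 wild-type libraries and 3 libraries labelled as Csmd3 knockout (Csmd3-/-, a loss of both copies). All embryos came from matings of Csmd3 heterozygous mice, and the sources used here name neither the deleted part of Csmd3 nor whether a library came from 1 embryo or from several. The product of Csmd3 is a membrane protein with long arrays of CUB and Sushi domains, and the comparison bears on how the cortical transcriptome differs before birth when the gene is disrupted.

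Neuropeptides are cut from larger precursor proteins inside dense-core vesicles, by convertases, carboxypeptidases and an amidating enzyme, and act on G-protein-coupled receptors after release. In the cortex most of them are known as products of GABAergic interneurons: Sst and Npy mark cells from the medial ganglionic eminence, and Vip marks cells from the caudal one. Cck and some other precursors are also made by projection neurons. The genes Penk, Tac1 and Pdyn are best known from the striatum, which lies directly under the cortex.

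RefSeq gives a start-site window (GRCm38.p6, the same assembly as mm10) for 8 of the 10 genes, all but Penk and Crh. Many neuropeptide genes respond to cyclic AMP through a cyclic AMP response element (CRE), so the windows, from 250 bases before to 50 bases after the start, were searched on both strands for 3 motifs. The full CRE, TGACGTCA, was present only in the window of Sst among these genes and in 1.79% of all 32851 windows. Its core, TGACG, which every full CRE also contains, was present in the windows of Sst, Vip, Cck, Tac1, Nts and Cort and in 20.8% of all windows. The TATA box letters TATAAA were present in the window of Vip and in 13.6% of all windows. No match was found in the windows of Npy and Pdyn. A match is a run of letters and not a measured binding site. The sequences of the 4 abundant genes, which hold nearly all the counts described here, follow 5′ to 3′ on the strand of the gene, with CRE matches in capitals. They stop before the first base transcribed in either annotation, except for Sst, of which 30 bases around the element are given.
Npy (chr6:49822460-49822709, plus strand): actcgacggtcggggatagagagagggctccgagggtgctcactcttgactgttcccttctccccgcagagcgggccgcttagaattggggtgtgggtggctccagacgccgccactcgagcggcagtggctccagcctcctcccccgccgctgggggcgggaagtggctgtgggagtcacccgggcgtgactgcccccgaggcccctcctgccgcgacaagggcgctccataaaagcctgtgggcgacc
Sst (chr16:23890874-23890903, minus strand): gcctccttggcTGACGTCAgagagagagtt
Cck (chr9:121495695-121495944, minus strand): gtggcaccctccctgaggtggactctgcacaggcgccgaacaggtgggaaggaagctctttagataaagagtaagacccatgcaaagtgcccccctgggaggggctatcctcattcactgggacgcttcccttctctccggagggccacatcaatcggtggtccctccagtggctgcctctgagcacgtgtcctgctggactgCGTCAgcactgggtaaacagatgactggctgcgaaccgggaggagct
Nts (chr10:102490487-102490668, minus strand): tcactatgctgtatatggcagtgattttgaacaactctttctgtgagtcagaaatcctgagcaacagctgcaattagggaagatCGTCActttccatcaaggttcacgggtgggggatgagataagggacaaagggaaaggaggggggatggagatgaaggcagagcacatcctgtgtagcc
The element of Sst began 48 bases before its RefSeq start and the core of Cck began 47 bases before, whereas the core of Nts lay 166 bases before its start.

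The libraries held 54244288 to 68269607 deposited counts each. Low values pile up at multiples of 4, so each sequenced fragment seems to have been entered as about 4 counts, and precision is that of the count divided by 4. Csmd3 itself, at 992, 765 and 867 deposited counts in wild type, fell to 675, 653 and 543 (by edgeR, adjusted p = 0.0233; log2 fold change -0.59). Its reads are summed over all exons, deleted or not, which makes this a weak check of the labels. Across all tested genes 1033 were higher and 503 lower in knockout by edgeR's quasi-likelihood test at an adjusted p under 0.05, or 5.21% and 2.53% (7.74% in either direction). The knockout samples also held more transcripts of other cells. Among tested markers, 22 of 25 for meninges, fibroblasts and mural cells, 2 of 7 for choroid plexus and 15 of 20 for dividing cells rose and 0 fell. Some of the meningeal and choroid plexus markers passed the filter on low counts only through the knockout libraries. The summed level of the 25 markers of meninges, fibroblasts and mural cells was 255 to 267 CPM in wild type and 1122 to 1402 CPM in knockout, and that of the 20 markers of dividing cells was 759 to 937 and 1233 to 1255 CPM. Summed choroid plexus markers reached 34.6, 64.5 and 520 CPM in knockout libraries 1, 2 and 3, against at most 8.36 CPM in wild type. The 2 that passed were Aqp1 and Enpp2, which gave 6.8 and 23.8 CPM of the sum in knockout library 1. Folr1, Kcne2 and Otx2 were at 0 in that library. Ttr was at 1.91, 35.7 and 452 CPM in knockout libraries 1, 2 and 3 and did not pass (adjusted p = 0.149 by edgeR). None of the markers in these 3 lists was at 0 in every library. Wild-type library 3 stood apart from the other wild-type libraries for several genes described here, and the members' results that rest on it are given with and without it. It held 1 count of 4 Y-linked genes, whereas the other 5 libraries held 1879 to 12749 such counts and 634 to 123157 counts of Xist, the transcript of the inactive X chromosome. Nothing in the labels says that replicates came from separate litters, so p-values measure the spread between these samples only.

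Npy, Sst and Cck fell in the knockout cortex, by 46.8%, 44.3% and 44.6%, and 0 of the 8 tested precursors rose. In edgeR 3 of 8 were lower, where 2.53% of all tested genes were, and no member was higher even at an unadjusted p under 0.05. DESeq2 also called 3 lower and 0 higher. The median log2 fold change of the 8 tested members, Tac1 among them, was -0.85, against 0.002 for all tested genes. With a filter of at least 1 CPM in 3 libraries, which left 5 members and not Tac1, it was -0.84. Every knockout library lay below every wild-type library for Npy, Sst, Cck and Tac1, as in 13.5% of all tested genes. Tac1 had to be high in wild type to be tested at all, so it adds nothing to that count. Together the 10 genes summed to 152, 161 and 96 CPM in wild-type libraries 1, 2 and 3 and to 72.1, 64.6 and 71.9 CPM in the knockout libraries. In bulk tissue, fewer cells that make a peptide and less RNA in each of them cannot be told apart.

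**Figure D1:**
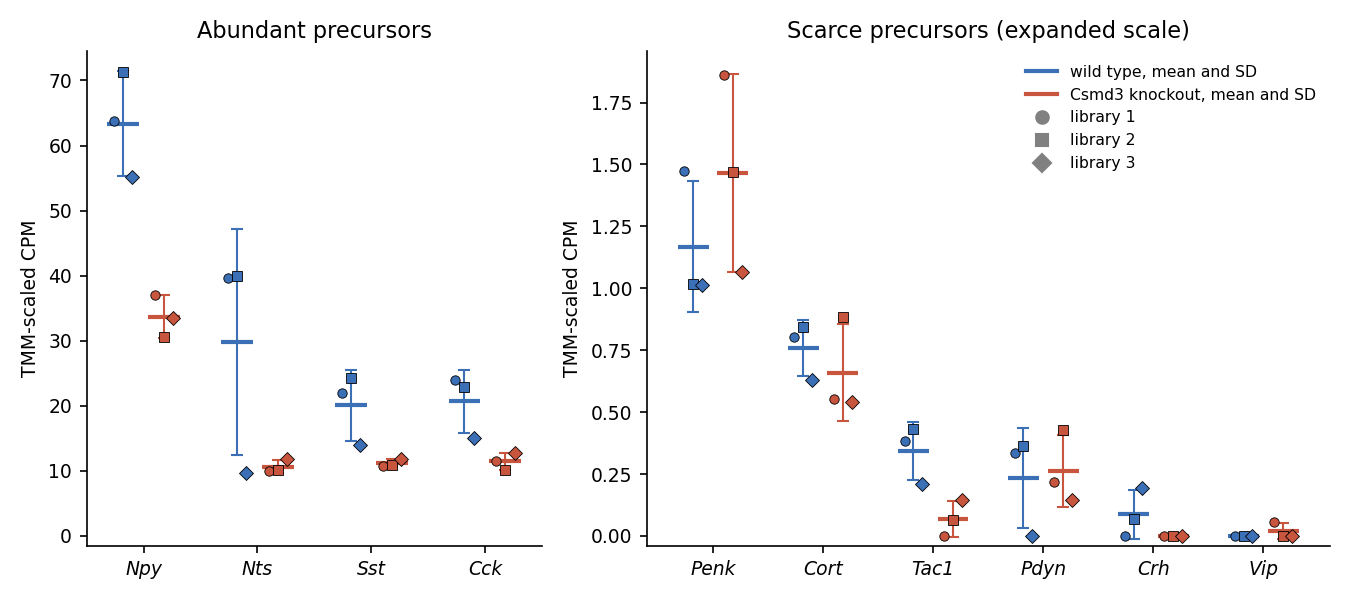
Level of each precursor in every library, in CPM scaled by TMM, with the abundant genes on the left and the scarce genes on the right; points are libraries, thick bars are means and error bars are SD (n = 3). All 3 knockout libraries lie below all wild-type libraries for Npy, Sst and Cck, whereas for Nts wild-type library 3 lies at 9.72 CPM, below the knockout libraries.

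Npy (ENSMUSG00000029819.6, chromosome 6, 49822710 to 49829507, plus strand, mm10) encodes neuropeptide Y, an inhibitory peptide of cortical interneurons. It was the most abundant of the 10. Npy stood at 63.8, 71.3 and 55.1 CPM in wild-type libraries 1, 2 and 3 and at 37.1, 30.5 and 33.5 CPM in knockout libraries 1, 2 and 3. The groups did not overlap, and the lowest wild-type library was 1.49 times the highest knockout library. Npy fell by 0.91 on the log2 scale (SE 0.11, adjusted p = 0.00153), from 63.4 ± 8.09 to 33.7 ± 3.28 CPM (SD, n = 3), a change of -46.8%. The call of Npy held with any 1 library left out (log2 fold change -1.0 to -0.82, highest adjusted p = 0.0149). It was the only member of which that was true. Without knockout libraries 2 and 3 together, which held the most choroid plexus transcripts, the value was -0.76 and the call was lost (adjusted p = 0.0993).

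Sst (ENSMUSG00000004366.4, chromosome 16, 23889573 to 23890958, minus strand) encodes somatostatin, the peptide of dendrite-targeting interneurons. Its levels were 22 and 24.3 CPM in wild-type libraries 1 and 2, 14 CPM in wild-type library 3, and 10.8, 10.9 and 11.9 CPM in knockout. The knockout libraries were tightly grouped, and wild-type library 3 lay 1.18 times above the highest of them. Sst fell by 0.84 on the log2 scale (SE 0.19, adjusted p = 0.0276), from 20.1 ± 5.41 to 11.2 ± 0.58 CPM (SD, n = 3). Without wild-type library 3 the log2 fold change was -1.05 (adjusted p = 0.00164). The call was lost when any other library was left out, with log2 fold changes of -0.88 to -0.68 and a highest adjusted p of 0.105.

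Cort (ENSMUSG00000028971.4, chromosome 4, 149125034 to 149126763, minus strand) encodes cortistatin, a relative of somatostatin that acts on the same receptors. Its levels were 0.804, 0.844 and 0.628 CPM in wild type and 0.553, 0.885 and 0.541 CPM in knockout. The groups overlapped, and the difference was -0.20 on the log2 scale (SE 0.40, adjusted p = 0.829). About 31 to 33 fragments per group lie behind these values, so a change of the size seen in Sst was not detectable at this depth.

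Vip (ENSMUSG00000019772.5, chromosome 10, 5639218 to 5647617, plus strand) encodes vasoactive intestinal peptide, which marks interneurons that inhibit other interneurons. Vip had 0 counts in all wild-type libraries and 4 deposited counts in knockout library 1, about 1 fragment, with 0 in the other 2. A count of 0 over the wild-type libraries allows a level of up to 0.0686 CPM (3 fragments over the group, a floor for counting error only). Crh (ENSMUSG00000049796.4, chromosome 3, 19693401 to 19695396, minus strand) encodes corticotropin-releasing hormone, a stress peptide that cortical interneurons also make. Crh had 0, 4 and 11 deposited counts in wild type and 0 in all knockout libraries, which allows up to 0.064 CPM there. Neither gene could be compared at this depth.

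Cck (ENSMUSG00000032532.7, chromosome 9, 121489824 to 121495694, minus strand) encodes cholecystokinin, a peptide of some interneurons and of many projection neurons. Its levels were 24, 22.9 and 15.1 CPM in wild-type libraries 1, 2 and 3 and 11.5, 10.1 and 12.8 CPM in knockout. As for Sst, wild-type library 3 was the lowest of its group and lay 1.19 times above the highest knockout library (12.8 CPM). Cck fell by 0.85 on the log2 scale (SE 0.18, adjusted p = 0.0213), from 20.7 ± 4.83 to 11.5 ± 1.34 CPM (SD, n = 3). Without wild-type library 3 it stood at -1.03 (adjusted p = 0.00279). Leaving out any other library ended the call of Cck (log2 fold change -0.93 to -0.74, highest adjusted p = 0.089).

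Nts (ENSMUSG00000019890.4, chromosome 10, 102481756 to 102490486, minus strand) encodes neurotensin, a peptide that modulates dopamine signalling and is made by several forebrain neuron types. Among the 4 abundant genes it had the widest spread in wild type. Nts stood at 39.6 and 40 CPM in wild-type libraries 1 and 2, at 9.72 CPM in wild-type library 3, and at 9.96, 10.2 and 11.9 CPM in knockout. Wild-type library 3 was thus 4.09 times below the mean of the other wild-type libraries and below every knockout library, so the groups overlapped. With all libraries Nts did not pass (-1.48 on the log2 scale, SE 0.58, adjusted p = 0.238), nor did it with the level of Y-linked genes as a covariate (-1.7, adjusted p = 0.282). Without wild-type library 3 it was -1.9 (adjusted p = 0.000137), whereas leaving out any other library gave -1.56 to -1.21 with adjusted p from 0.418 to 0.48. Depth was not the limit here, since Nts rested on about 1310 fragments in wild type, against 497 in knockout.

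**Figure D2:**
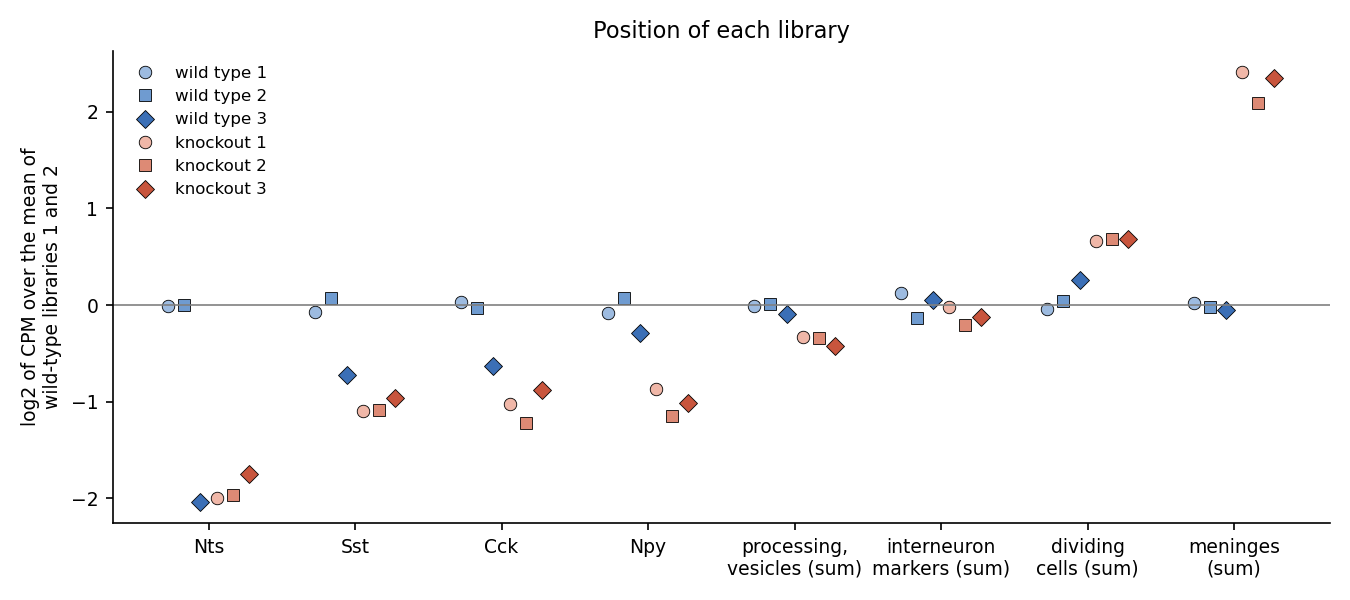
Level of 4 precursors and summed level of 4 gene lists in each library, as log2 of CPM over the mean of wild-type libraries 1 and 2 (y axis); each point is 1 library. Wild-type library 3 lies with the knockout libraries for Nts, between them and the other wild-type libraries for Sst, Cck, Npy and the markers of dividing cells, and with the other wild-type libraries for the meningeal list.

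The shortfall of wild-type library 3 differed between the 4 abundant genes. Its level was 0.244 times the mean of wild-type libraries 1 and 2 for Nts, 0.604 for Sst, 0.646 for Cck and 0.816 for Npy. In the same library the summed markers of dividing cells were at 937 CPM, between the 759 and 803 CPM of the other wild-type libraries and the 1233 to 1255 CPM of knockout. Summed interneuron markers were at 2205 CPM in that library, within the 1936 to 2319 CPM of the other wild-type libraries. Reln and Zeb2 gave 422 and 520 CPM of that sum, so it says little about the scarcer markers. Single markers went both ways. Gad1, Gad2, Slc32a1 and Lhx6 were at their lowest wild-type level in that library (34.8, 35, 22.9 and 85.9 CPM). Zeb2, Satb1 and Sox6 were at their highest wild-type level in that library. The meningeal list was at 255 CPM there, against 267 and 261 CPM in wild-type libraries 1 and 2. The part of dividing cells in these differences was not tested.

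Penk (ENSMUSG00000045573.9, chromosome 4, 4133531 to 4138819, minus strand) encodes proenkephalin, the source of the enkephalin opioids. Its levels were 1.47, 1.02 and 1.01 CPM in wild type and 1.86, 1.47 and 1.06 CPM in knockout. The groups overlapped and Penk did not pass (log2 fold change 0.33, SE 0.32, adjusted p = 0.62). Penk shares 233 exonic bases with A830012C17Rik on the opposite strand, a gene with 0 to 8 deposited counts per library.

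Pdyn (ENSMUSG00000027400.11, chromosome 2, 129686565 to 129699844, minus strand) encodes prodynorphin, the source of the dynorphin opioids. It had 20, 21 and 0 deposited counts in wild type, against 15, 27 and 8 in knockout, and its direction turned with the libraries used (log2 fold change 0.18, SE 1.06, adjusted p = 0.948, -0.4 if wild-type library 3 was left out and -0.34 if knockout library 2 was). Tac1 (ENSMUSG00000061762.12, chromosome 6, 7554879 to 7565834, plus strand) encodes the precursor of the tachykinin substance P. It had 23, 25 and 12 deposited counts in wild type, against 0, 4 and 8 in knockout. The groups of Tac1 did not overlap, yet the wild-type group rested on about 15 fragments and the knockout group on about 3, and Tac1 did not pass (log2 fold change -2.31, SE 1.04, adjusted p = 0.227). Tac1 passed the filter on low counts only through its wild-type libraries.

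**Figure D3:**
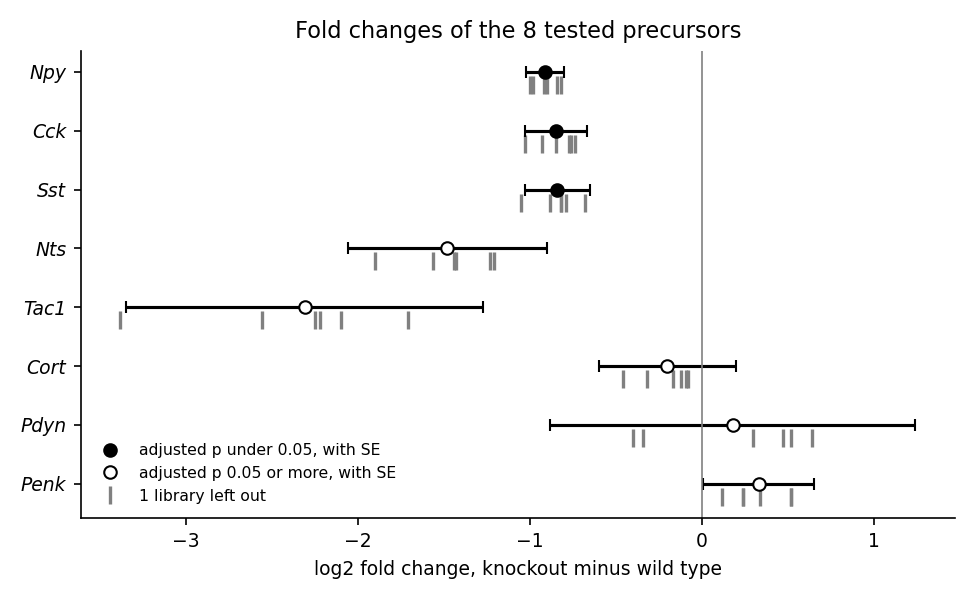
Log2 fold change of the 8 tested precursors, knockout minus wild type (x axis), with SE bars; filled circles have an adjusted p under 0.05, and grey ticks are the values with each library left out in turn. Npy, Cck and Sst lie between -0.91 and -0.84, Nts and Tac1 lie lower with wide errors, and the ticks of Pdyn fall on both sides of 0.

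Penk, Tac1 and Pdyn are also abundant in the striatum, so markers of striatal projection neurons were measured beside them. Of 18 tested markers, which include these 3 genes, 3 rose, where 5.21% of all tested genes did. Without knockout library 1, 2 or 3 the number was 0, 1 and 1. The summed level of the list was 469 to 525 CPM in wild type and 519 to 536 CPM in knockout. Meis2 and Pde10a gave 225 and 151 CPM of its wild-type mean of 489 CPM, so the sum says little about the scarcer markers. The dopamine receptor gene Drd1, a marker of direct-pathway neurons, was at 9.36 to 11.6 CPM in wild type and 9.3 to 10.3 CPM in knockout (log2 fold change -0.07, adjusted p = 0.818). The adenosine receptor gene Adora2a rose (0.67, SE 0.15, adjusted p = 0.0269). The transcription factor genes Rarb (2.22, SE 0.45) and Ebf1 (1.13, SE 0.21) also rose. Rarb was scarce in wild type, at 0.235, 0.638 and 0.995 CPM. Adora2a, Rarb and Ebf1 rose in the libraries with more meningeal and mural transcripts, whose part in these values was not tested. Of these 3 calls, that of Ebf1 was lost only without knockout library 1, and those of Adora2a and Rarb were each lost in 4 of the 6 fits with a library left out. Rarb shares 1793 exonic bases with Top2b on the opposite strand. Whether striatal tissue contributed to the levels of Penk, Tac1 and Pdyn was not tested.

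Levels were compared between genes per kilobase of merged exons. In wild type Npy led with 112 ± 14.3 CPM per kilobase (SD, n = 3), followed by Sst at 27.8 ± 7.5, Nts at 23.9 ± 13.9 and Cck at 15.8 ± 3.7. Sst and Nts were not separated by their spread, nor were Nts and Cck, whereas the range of Sst (19.4 to 33.7) lay above that of Cck (11.6 to 18.4). Cort followed at 1.12 ± 0.17 and Penk at 0.715 ± 0.162, with ranges that did not overlap. Tac1 (0.101 ± 0.034), Pdyn (0.0805 ± 0.0698) and Crh (0.0659 ± 0.0737) were not separated, and Vip was at 0. These 3 values rested on about 15, 10 and 4 wild-type fragments, of which only that of Crh is close to the floor of 3. In knockout the order began Npy, Sst, Cck and Nts (59.6 ± 5.8, 15.5 ± 0.8, 8.78 ± 1.03 and 8.55 ± 0.83 CPM per kilobase).

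The shares of the 3 genes that fell in the summed per-kilobase level of the 10 overlapped between the groups. Npy made up 62.6% ± 7.01 of that sum in wild type and 63% ± 2.53 in knockout, Sst 15.2% ± 1 and 16.5% ± 1.2, and Cck 8.71% ± 0.59 and 9.29% ± 0.74 (SD, n = 3). The ratio of Npy to Sst CPM was 2.91, 2.94 and 3.95 in wild type, against 3.43, 2.81 and 2.83 in knockout. That ratio differed by -0.10 on the log2 scale (2-sided exact permutation p = 0.5, n = 3 per group, 0.556 adjusted over the 10 ratios computed), and the groups overlapped. Nts took 16.2%, 15.2% and 5.65% of the summed level in wild-type libraries 1, 2 and 3 and 8.03%, 9.36% and 9.84% in knockout. The shares of Penk (0.402% ± 0.093 and 0.951% ± 0.246) and Cort (0.624% ± 0.044 and 1.05% ± 0.39) were higher in every knockout library than in every wild-type library, a description with no test. The sum itself fell from 182 ± 38.7 to 94.4 ± 6.28 CPM per kilobase, so any gene that fell less than the sum gained share by arithmetic. The levels of Penk and Cort themselves overlapped between the groups.

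Interneuron markers other than the peptides had a median log2 fold change of -0.32. Of 34 tested markers 3 fell and 0 rose in edgeR, a share of 8.82% against 2.53% of all tested genes, and at an unadjusted p under 0.05 12 were lower and 1 higher (DESeq2 called 7 and 1). The 3 were Htr3a, the ionotropic serotonin receptor of interneurons from the caudal ganglionic eminence (from 12.9 ± 0.99 to 8.02 ± 0.39 CPM, a log2 difference of -0.68, SE 0.13, adjusted p = 0.0122), the neurexin ligand gene Nxph1 (-0.62, SE 0.12, adjusted p = 0.0162) and the transcription factor gene Npas1 (-0.37, SE 0.10, adjusted p = 0.0498). Without knockout library 3 the calls of all 3 were lost, and without wild-type library 3 the count was 6 lower and 1 higher. It was 1 lower without knockout library 1, 2 lower when either wild-type library 1 or knockout library 2 was left out, and 3 without wild-type library 2. The next 4 genes were added outside the naming rule, as markers of these cells as a whole. Lhx6, the transcription factor that marks interneurons from the medial ganglionic eminence, was at -0.05 (SE 0.14, adjusted p = 0.868), and Gad2, which makes GABA, at -0.12 (SE 0.14, adjusted p = 0.683). Gad1, the other GABA-synthesizing enzyme, was at -0.32 (SE 0.10, adjusted p = 0.0937) and the vesicular GABA transporter gene Slc32a1 at -0.37 (SE 0.13, adjusted p = 0.122).

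Npy and Sst were therefore also set against these 4 genes within each library. Npy and Sst by themselves already separated the groups, and the 4 genes were chosen with their values known. The ratios are thus a description and no further support for the falls. The ratio of Npy to Lhx6 was 0.588, 0.81 and 0.641 in wild type, against 0.389, 0.414 and 0.326 in knockout, a difference of -0.85 on the log2 scale. The ratio of Sst to Lhx6 was 0.202, 0.276 and 0.163 in wild type, against 0.113, 0.147 and 0.115 in knockout, a difference of -0.75. In both the groups did not overlap, and the 2-sided exact permutation p was 0.1, the smallest that 3 against 3 allows (0.167 adjusted over 10 ratios). The ratios of Npy to Gad1 (-0.59), Gad2 (-0.78) and Slc32a1 (-0.54) and of Sst to Gad2 (-0.68) did not overlap either, with the same exact p. The ratios of Sst to Gad1 (-0.49) and to Slc32a1 (-0.44) overlapped (exact permutation p = 0.2, 0.25 adjusted), through wild-type library 3 in each case.

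**Figure D4:**
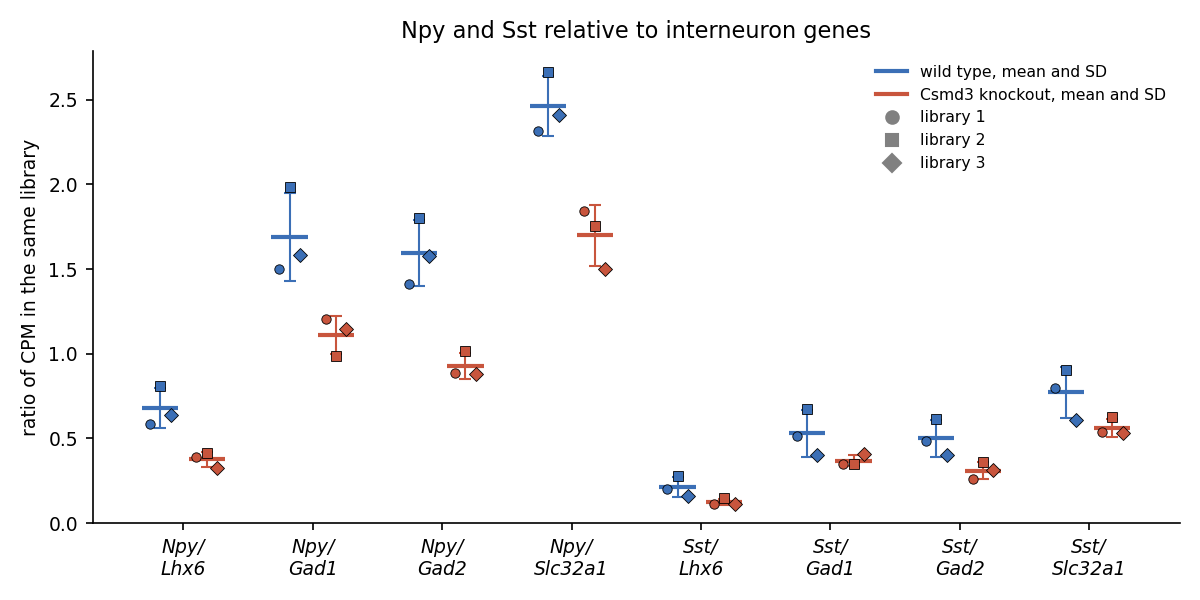
Ratio of Npy or Sst to each of 4 interneuron genes in the same library (y axis, ratio of CPM); points are libraries, thick bars are means and error bars are SD (n = 3). Of the 8 ratios, 6 separate the groups, and those of Sst to Gad1 and to Slc32a1 overlap. The levels of Npy and Sst alone separate the groups as well, so the ratios are no separate support.

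Of 25 tested genes that store and process peptide precursors, 9 fell and 0 rose (36% lower, against 2.53% of all tested genes), with a median log2 fold change of -0.36. At an unadjusted p under 0.05 13 were lower and 1 higher, and DESeq2 called 10 and 0. Their summed level was 1696 to 1820 CPM in wild type and 1349 to 1438 CPM in knockout. Among the 9, the largest falls were in Vgf, a granin-like precursor (from 12.6 ± 3.98 to 5.6 ± 0.72 CPM, a log2 difference of -1.17, SE 0.22, adjusted p = 0.0142), Cgref1 (-0.99, SE 0.20), the vesicle phosphatase-like gene Ptprn2 (-0.64, SE 0.15) and Syt4, a synaptotagmin of secretory vesicles (-0.58, SE 0.06, adjusted p = 0.00066). The call of Syt4 held with any 1 library left out, whereas those of Vgf, Cgref1 and Ptprn2 held in 4, 3 and 1 of 6 such fits. The remaining 5 were Chgb, a granin (-0.58, SE 0.10), Ptprn (-0.54, SE 0.14), the carboxypeptidase gene Cpe (-0.41, SE 0.07), the convertase gene Pcsk2 (-0.36, SE 0.09) and its chaperone Scg5 (-0.32, SE 0.08). Chgb kept its call in all 6 fits, Cpe in 5, Pcsk2 and Scg5 in 1 and Ptprn in 0. The count of lower genes was 4 when wild-type library 1, wild-type library 2 or knockout library 2 was left out, 5 without knockout library 1, 2 without knockout library 3, 5 with sex as a covariate and 0 without knockout libraries 2 and 3 together. Syt4, Ptprn, Pcsk2, Pcsk1n and Baiap3 share exonic bases with genes on the opposite strand, so reads of either strand may have entered their counts. The same holds for some genes of other lists, among them Slc32a1 and Lef1. Among those that did not pass, the gene of the convertase inhibitor proSAAS, Pcsk1n, was at -0.74 (SE 0.19, adjusted p = 0.0675) with groups that did not overlap. Cpd, a carboxypeptidase gene, at 0.19 (adjusted p = 0.158), and Baiap3 at 0.93 (adjusted p = 0.281) were higher in every knockout library. The amidating enzyme gene Pam was at -0.08 (adjusted p = 0.661) and the convertase gene Pcsk1 at -0.36 (adjusted p = 0.592).

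**Figure D5:**
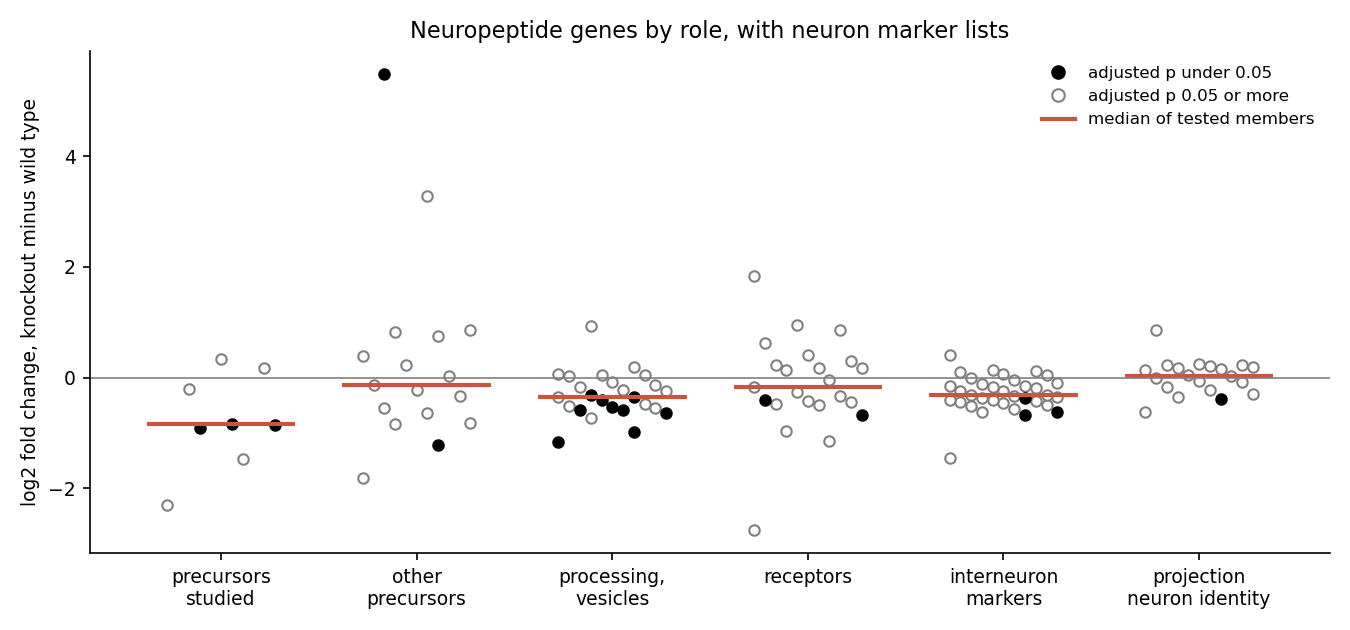
Log2 fold change, knockout minus wild type (y axis), of every tested gene in 6 lists (x axis); filled points have an adjusted p under 0.05 and red bars are list medians. The medians are -0.85 for the 8 precursors, -0.14 for other precursors, -0.36 for processing and vesicle genes, -0.17 for receptors, -0.32 for interneuron markers and 0.03 for projection neuron identity.

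Receptors for these peptides were mostly not distinguishable between the groups. Of 23 tested receptors and binding proteins 2 fell and 0 rose in edgeR (8.7% lower, against 2.53%), with a median of -0.17. At an unadjusted p under 0.05 5 were lower and 2 higher, and DESeq2 called 4 and 0. Ntsr1, the neurotensin receptor of deep-layer projection neurons, fell from 120 ± 4.57 to 90.7 ± 5.53 CPM (a log2 difference of -0.41, SE 0.07, adjusted p = 0.0108), a call lost without knockout library 1 or 2. In wild-type library 3 Ntsr1 was at 124 CPM, the highest level of the 6 libraries, whereas Nts was lowest there. Crhr1, the main receptor for Crh, fell as well (-0.67, SE 0.15, adjusted p = 0.0277), a call kept only without wild-type library 3 among the fits with a library left out. The receptor count was thus 0 without knockout library 1 or 2, 1 when wild-type library 1, wild-type library 2 or knockout library 3 was left out, and 3 without wild-type library 3. The neuropeptide Y receptor gene Npy1r was at -0.50 (SE 0.16, adjusted p = 0.0915). The somatostatin receptor gene Sstr2, at 45.3 to 54.7 CPM in wild type and 51.8 to 61.7 CPM in knockout, was at 0.18 (SE 0.10, adjusted p = 0.344). Sstr1 stood at 12.6, 9.65 and 4.75 CPM in wild-type libraries 1, 2 and 3 and at 3.77, 3.56 and 4.87 CPM in knockout, and did not pass (-1.15, SE 0.34, adjusted p = 0.088). Npy1r, Sstr1 and Sstr2 were named after their values were seen, as receptors of the genes that fell.

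Of 17 other neuropeptide precursors tested, 1 rose and 1 fell, where 5.21% of all tested genes rose and 2.53% fell. Their median log2 fold change was -0.14. Grp, the gastrin-releasing peptide gene, stood at 5.4, 3.53 and 3.35 CPM in wild type and fell to 1.57, 1.25 and 2.51 CPM (-1.21, SE 0.31, adjusted p = 0.0443), a call that held in 2 of 6 fits with a library left out. Edn3, which encodes an endothelin, a vasoactive peptide, rose from 0.137 ± 0.069 to 6.26 ± 1.8 CPM (5.49, SE 0.38, adjusted p = 5.0e-05), and it did so in the libraries with more meningeal and vascular transcripts. Edn3 passed the filter on low counts only through its knockout libraries, so it adds nothing to the count of precursors that rose. Among 20 genes for the identity of projection neurons, which make up most of the tissue, 1 fell and 0 rose in edgeR. Across all tested genes 2.53% fell and 5.21% rose. At an unadjusted p under 0.05 4 of the 20 were lower and 2 higher (DESeq2 called 3 and 0). Without wild-type library 3 the counts were 2 lower and 3 higher, and without any 1 knockout library 0 and 0. Their median was 0.03 and their summed level 5396 to 6200 CPM in wild type and 5843 to 6459 CPM in knockout. The upper-layer factor gene Cux2 fell (-0.39, SE 0.07, adjusted p = 0.014), a call lost without any 1 knockout library, and Pou3f3 (-0.08) and Neurod2 (0.02) did not pass. Non-neuronal levels were higher in the same knockout libraries in which peptide and vesicle genes were lower. Within the knockout group, library 1 held the highest meningeal sum (1402 CPM) and also the highest Npy (37.1 CPM) and vesicle-gene sum (1438 CPM). Sst (10.8 CPM) and Nts (9.96 CPM) were at their lowest knockout level in that library. Knockout library 3 held the highest choroid plexus sum (520 CPM) and the lowest vesicle-gene sum (1349 CPM). It also held the highest knockout levels of Sst (11.9 CPM), Cck (12.8 CPM) and Nts (11.9 CPM), so the genes did not share 1 order. The part of non-neuronal cells in these results was not tested.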

How the data were processed

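RNA sequencing gave gene counts for 3 wild-type and 3 Csmd3 knockout cortex libraries. The authors deposited whole numbers, treated here as estimated counts because values of 4 were in excess (in wild-type library 1, 1298 genes stood at 4, 492 at 3 and 318 at 5); no rounding was needed. Per the submitters' processing notes the build was mm10 and the tools included HISAT2 2.0.5, StringTie 1.3.4, Trim Galore 0.4.4 and FastQC 0.11.9. For the counting program, the annotation and strand handling, the sources used here give no name. GENCODE M21 named 55141 of 55401 rows, and unnamed rows held at most 0.0238% of counts.

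After filterByExpr and TMM scaling, edgeR 4.0.16 in R 4.3.3 compared the groups by its robust quasi-likelihood test, with Benjamini-Hochberg adjustment over all tested genes and a threshold of 0.05. The SE of a log2 fold change is its size over the root of F. CPM values are TMM-scaled. Ratios were compared by exact permutation. The fit was tested on simulated data. Alternatives were RLE and upper-quartile scaling, TMM without genes of absolute log2 fold change above 1, DESeq2 1.42.0, limma 3.58.1 (voom), other filters, counts divided by 4, a replicate block, sex, a fit that was not robust, a threshold of 0.01 and libraries left out. Sex entered as the level of Y-linked genes, a form chosen after seeing that libraries held Xist and Y-linked counts together.

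The members, the 14 other lists and the tests were chosen with earlier results of these data known. All 10 members are named. From each other list up to 4 genes past the threshold by size are named, and where fewer than 2 passed, up to 2 of the most abundant. Lists of non-neuronal cells are given by counts and sums, with some choroid plexus markers named. Genes outside this rule were named after their values were seen. Calls in the other direction among striatal markers are not reported here. Floors and fragment numbers cover counting error only, because PCR duplicates cannot be told from separate molecules.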

Additional observations from a re-analysis of the deposited data

How the results depend on the processing

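With RLE, upper-quartile or restricted TMM scaling, DESeq2, voom, other filters, counts divided by 4, a fit that was not robust or sex as a covariate, Npy, Sst and Cck were the 3 members called lower, and 0 were higher in any fit. Across all genes DESeq2 called 928 lower, sex as a covariate gave 670 higher, and a threshold of 0.01 gave 418 higher and 89 lower with 1 member, Npy. The members' median was -0.97 with sex. With 1 library left out, 472 to 1402 genes were higher and 137 to 956 lower, 1 to 4 members were lower, and the median lay between -1.02 and -0.73. Without knockout libraries 2 and 3 together, 262 genes were higher, 43 lower and 0 members were called, in a fit that assumes the lone knockout library varies like the others.

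The replicate number as a block gave 686 higher and 255 lower genes and 1 member, Npy (Cck adjusted p = 0.0697, Sst 0.0706). Same-numbered libraries did not deviate together (r = 0.028, -0.003 and 0.002 across genes), and not every library correlated best with its own number, so the numbers were not taken as pairs. Signs turned only for genes that never passed: Pdyn (-0.4 to 0.64 with 1 library left out, -0.4 without wild-type library 3, -0.34 without knockout library 2, -0.08 without knockout libraries 2 and 3), Neurod2 (-0.01 to 0.03, the former without wild-type library 1) and Fosl2, an immediate early gene at 0.01 (-0.18 to 0.17 with 1 library left out, -0.04 with voom, -0.0 with counts divided by 4, -0.15 with sex, -0.18 without wild-type library 3, -0.07 without knockout library 3, -0.05 without knockout libraries 2 and 3). The cause was not tested. Depth limited Vip, Crh, Tac1, Pdyn and Cort, and not Npy, Sst, Cck or Nts.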

Other observations

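Few genes shared the library pattern of Nts. Among 15296 tested genes with a mean of at least 1 CPM, 12 had wild-type libraries 1 and 2 each at least 2-fold above each of the other 4 libraries, and 17 had the opposite pattern. The rule was set after the levels of Nts were seen. Beside Nts the 12 included Htr1a, a serotonin receptor gene, at 5.03 and 4.5 CPM in wild-type libraries 1 and 2 and at 1.01 to 1.5 CPM in the others. They also included Prss12, which encodes the synaptic protease neurotrypsin (8.29 and 8.82 CPM against 3 to 3.21 CPM), Ramp1, a subunit of the receptor for calcitonin gene-related peptide (3.52 and 3.77 against 1.03 to 1.73 CPM), and St6galnac5, a sialyltransferase gene and the most abundant of the 12 (55.6 and 38.8 against 16.8 to 18.8 CPM). Sst and Cck were not among the 12.

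Several neuropeptide genes are activity-dependent, so a list of immediate early genes was counted, which also holds the CREB pathway genes Creb1 and Crtc1. Of 18 tested, 1 rose and 0 fell in edgeR, where 5.21% of all tested genes rose and 2.53% fell. The median log2 fold change was 0.0. At an unadjusted p under 0.05 2 were higher and 1 lower, and DESeq2 called 2 and 0. The edgeR counts were 0 higher and 2 lower with sex as a covariate, and 1 higher and 2 lower without wild-type library 3. The one that rose was Egr1 (0.64, SE 0.17, adjusted p = 0.0493), a call lost with any library left out (highest adjusted p = 0.188). Crtc1, a coactivator of CREB, was at -0.28 (SE 0.09, adjusted p = 0.106) and passed without wild-type library 3 (-0.36, adjusted p = 0.0221).

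Of 11 tested markers of amygdala, septum and olfactory bulb, regions that adjoin the cortex, 4 rose and 1 fell. Across all tested genes 5.21% rose and 2.53% fell. Zic4 (3.33, SE 0.27), Zic2 (1.34, SE 0.14) and Zic1 (1.27, SE 0.12), transcription factor genes also known from meninges, rose, and Trpc4, a cation channel gene, fell (-0.77, SE 0.13). All 4 of these calls held with any 1 library left out. Of 9 tested markers of thalamus and hypothalamus 2 rose, Lef1 (1.49, SE 0.21) and Lmx1b (4.18, SE 1.04, a call kept only without wild-type library 1). Lmx1b, at 8, 0 and 0 deposited counts in wild type, passed the filter on low counts only through its knockout libraries. Of the 9, 7 were higher and 2 lower in direction, and 3 listed genes were at 0 in every library. The summed level of the list was 13.8 to 18.6 CPM in wild type and 23.1 to 30.2 CPM in knockout. Lef1 gave 3.98 CPM of its wild-type mean of 16 CPM and 11.2 CPM of its knockout mean of 26.85 CPM. The sum thus says little about the scarcer markers. Markers of microglia and macrophages (13 of 20) and of endothelium (12 of 18) rose as well, and some of them passed the filter on low counts only through the knockout libraries. The microglial count was 6 without knockout library 1 or 3, 8 without wild-type library 1 or with sex as a covariate, and 7 with the replicate number as a block. The endothelial count was 7 without wild-type library 1 or 2, 5 without knockout library 3, 7 with sex and 6 with the block. In these lists the knockout sums ran from 161 to 190 and from 523 to 654 CPM, against 62.9 to 72 and 321 to 367 CPM in wild type.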
